A study of Rattus norvegicus with 6 samples.

Results

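Fatty acid oxidation, ketogenesis and PPAR-alpha target genes were examined in rat liver tissue as a set of 39 genes listed by symbol, of which 37 were found among the 32623 genes of the deposited table. Eci2 and Decr2 had no matching symbol. Of the 37 genes, 36 had enough counts to be tested, and Acot1 did not. RNA was sequenced from 3 libraries of a TAE group, whose animals underwent transarterial embolization, the blocking of the arteries that feed a liver tumour, and from 3 libraries of an untreated control group named HCC, for hepatocellular carcinoma. The labels give the tissue as liver for both groups, and do not state the strain, age, tumour model, embolic agent, sampling time or share of tumour in the samples. Total counts were 14552885 to 16604067 in the TAE libraries and 13448286 to 14370846 in the HCC libraries. The labels call the replicates biosamples without naming separate animals, and the spread behind every p-value here is therefore that between samples and may be technical. The tissue carried the RNA of hepatocytes, with Alb (albumin) at 5318 to 15304 FPKM in TAE and 12096 to 15868 FPKM in HCC, where FPKM is the count scaled to exon length and to the library total.

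Hepatocytes break down fatty acids in 3 places. In mitochondria, fatty acids enter as carnitine esters and are shortened by beta oxidation to acetyl-CoA, much of which the liver turns into ketone bodies for other organs. Peroxisomes shorten very long and branched chains, and Cyp4a enzymes of the endoplasmic reticulum oxidize the far end of the chain, which is called omega oxidation. The nuclear receptor PPAR-alpha switches on genes of all these routes during fasting, and in rodents the Cyp4a genes are among its most responsive targets.

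Genes of this set were mostly lower in TAE than in HCC. In edgeR's quasi-likelihood test with an adjusted p of 0.05 over all 14499 genes tested, Cyp4a1, Cyp4a3, Fgf21, Pex11a, Acadl and Bdh1 fell, 30 of the 36 genes did not pass, and 0 rose. Thus 16.7% of the tested members were called lower, where 0.310% of all genes were (45 genes), while 2.70% of all genes were called higher (392 genes). The members were chosen with earlier results of these data known, so these shares describe the list and do not test it. Of 72 further genes tested for the pathway, 0 were called in either direction. At an unadjusted p under 0.05, 20 members were lower, where 6.82% of all genes were, and 0 were higher, where 15.9% of all genes were. DESeq2 called 15 members lower, where 1.99% of all genes were, and 0 higher, where 10.2% were. The log2 change was below 0 for 35 of the 36 members, against 53.1% of all genes, with a median of -0.62 over the members and -0.03 over all genes tested. The 35 include Echs1, which had only 8 to 20 counts per library. In 23 of the 36 genes the FPKM of every TAE library lay below every HCC library, which held for 5.54% of all genes, and in 0 did every TAE library lie above, which held for 21.9% of all genes. After TMM scaling, which corrects for library composition, the groups were separate in the same way for 18 of the 36 genes and for 13.4% of all genes. In bulk tissue, fewer cells of a type and less RNA per cell cannot be told apart.

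How many members passed depended on which libraries were included. Without TAE replicate 3, edgeR called 23 members lower, where 3.51% of all genes were, and without TAE replicate 2 it called 13, where 9.56% of all genes were, and all 6 of the genes above were called in both. Without HCC replicate 1, 2 or 3, or without TAE replicate 1, it called 0 members, where only 0, 1, 0 and 1 genes were called in all, so these 4 fits tell nothing about the members by this rule. At an unadjusted p under 0.05, 18, 15, 15 and 16 members were lower in them, where 3.58%, 2.67%, 2.29% and 3.37% of all genes were, and 0 were higher. All 6 fits that left out a library had at least 35 members with a log2 change below 0.

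**Figure D1:**
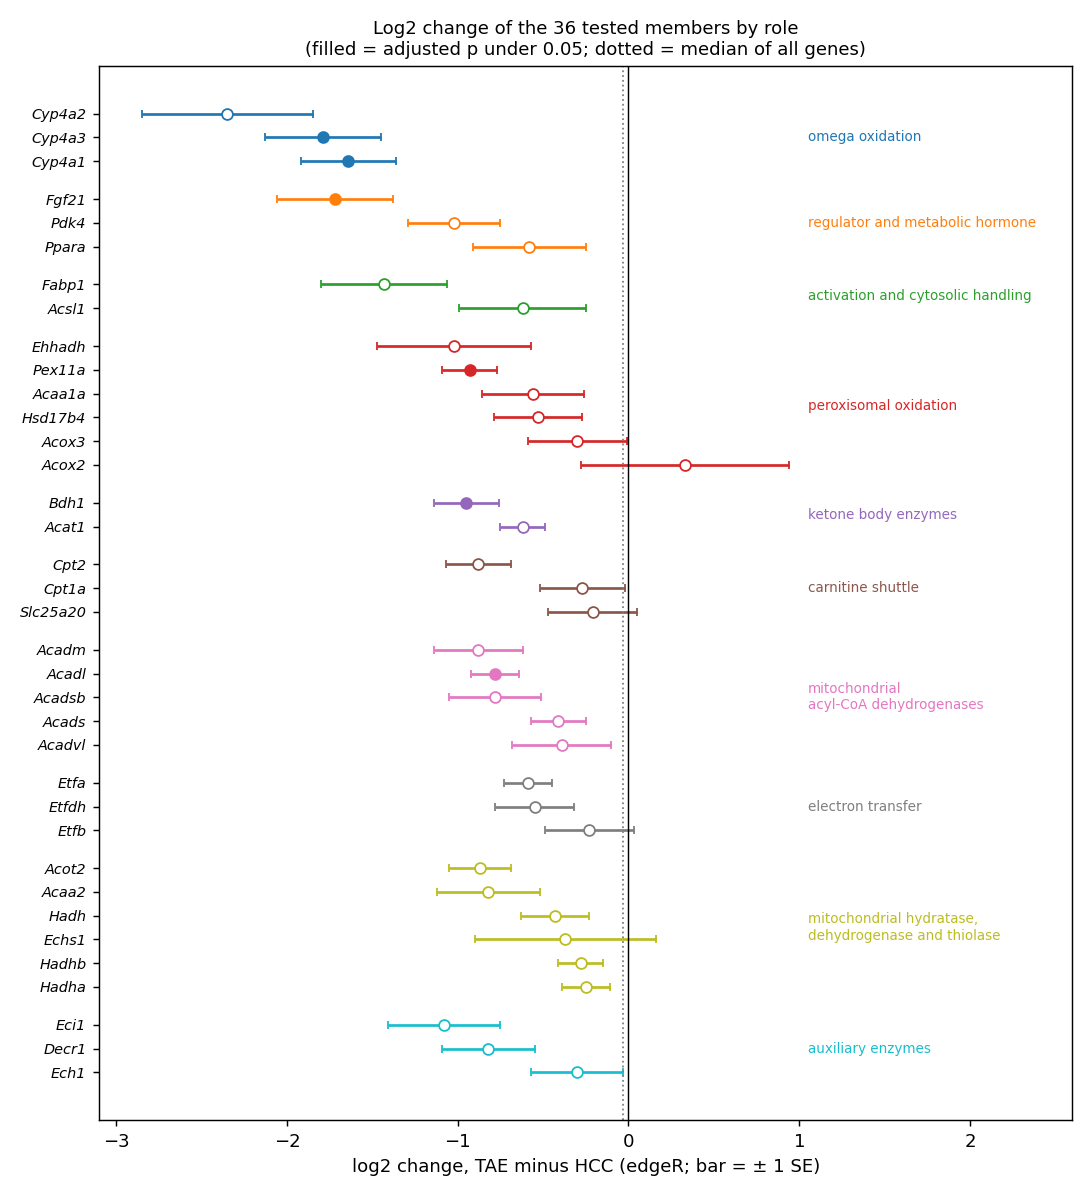
Log2 change (TAE minus HCC, x axis) of the 36 tested members, grouped by role, with bars of 1 SE and filled points for an adjusted p under 0.05 in edgeR. The 3 Cyp4a genes and Fgf21 lie farthest to the left, from -2.35 to -1.64, and Acox2 alone lies right of 0.

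Among the regulator and its hormonal and signalling targets, Fgf21 fell and Ppara itself did not pass. Fgf21, a liver hormone induced by PPAR-alpha in fasting, had 4.71, 6.45 and 8.16 FPKM in the TAE libraries, against 15.0, 20.9 and 26.7 FPKM in the HCC libraries, from 43 to 85 counts in TAE and 135 to 237 counts in HCC. All 3 TAE libraries were below the lowest HCC library, and the log2 change was -1.72 ± 0.34 (SE, edgeR adjusted p = 0.0487). Pdk4, the kinase that restrains pyruvate oxidation when fat is burned, had 13.4, 7.21 and 6.97 FPKM in TAE and 15.9, 17.7 and 20.0 FPKM in HCC, also without overlap (log2 change -1.02 ± 0.27, edgeR adjusted p = 0.0884). Ppara had 1.61, 1.76 and 1.64 FPKM in TAE and 3.60, 1.75 and 1.89 FPKM in HCC. Its groups overlapped, and HCC replicate 1 alone was high. The difference of Ppara was within the spread of the HCC libraries (log2 change -0.58 ± 0.33, edgeR adjusted p = 0.322).

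The omega oxidation genes had the lowest median log2 change of the roles, -1.79, though Fgf21 (-1.72) was lower than Cyp4a1 (-1.64). Cyp4a1, Cyp4a2 and Cyp4a3 encode cytochromes P450 that hydroxylate fatty acids at the omega end. Cyp4a1 had 9.33, 6.15 and 9.03 FPKM in TAE, against 19.5, 32.0 and 23.1 FPKM in HCC, and fell by 1.64 ± 0.28 on the log2 scale, or by 67.9% (edgeR adjusted p = 0.0398). Cyp4a3 had 29.9, 19.1 and 40.0 FPKM in TAE, against 84.8, 114 and 108 FPKM in HCC, and fell by 1.79 ± 0.34 on the log2 scale, or by 71.2% (edgeR adjusted p = 0.0443). In both genes every TAE library was below every HCC library. Cyp4a2 had 40.5, 27.6 and 49.4 FPKM in TAE, against 80.6, 286 and 223 FPKM in HCC. Its HCC replicate 1 was far below the other HCC libraries yet above all TAE libraries, and its log2 change of -2.35 ± 0.50, the lowest of the 36 members, did not pass (edgeR adjusted p = 0.0534). In the deposited table Cyp4a1 lies on chromosome 5 from 134492756 to 134507154 on the plus strand, Cyp4a3 from 134469270 to 134484839 and Cyp4a2 from 134196912 to 134207863, both on the minus strand. The build of these coordinates is not settled. The Cyp4a genes belong to 1 family, and how reads that match more than 1 of them were counted is not known, so each is uncertain as a single gene. Likeness was measured here only between the promoters of Cyp4a2 and Cyp4a3, and not for Cyp4a1.

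Promoters are shown for Cyp4a2 and Cyp4a3, the members with the lowest log2 changes, and for Fabp1, the only member that held the repeat searched for. PPAR-alpha binds, with its partner RXR, a direct repeat of a hexamer with a spacer of a single base. The repeat, AGGNCA followed by any base and AGGNCA again, on either strand, was found in 1 of the 34 member promoters in the table (2.94%), that of Fabp1, and in 0.415% of all 33469 promoters. The hexamer AGGTCA on both strands, which the Fabp1 match also contains, was found in 9 of the 34 (26.5%) and in 16.2% of all promoters. The 9 were Acadvl, Cyp4a2, Cyp4a3, Echs1, Eci1, Eci2, Fabp1, Hadhb and Hsd17b4. Acadl, Acaa2, Ech1, Decr1 and Cyp4a1 had no entry. A match describes letters in a window of 250 bases before to 50 bases after the start, and binding was not measured here. The sequences below are from RefSeq on GRCr8, read 5′ to 3′ on the gene's strand, with the match in capitals. That of Fabp1 is chr4:104749090-104749389 on the plus strand, with the match on its minus strand from 77 to 65 bases before the start. Those of Cyp4a2, chr5:134170859-134171158, and Cyp4a3, chr5:134352187-134352486, are on the minus strand, each with AGGTCA from 105 to 100 bases before the start.
Fabp1: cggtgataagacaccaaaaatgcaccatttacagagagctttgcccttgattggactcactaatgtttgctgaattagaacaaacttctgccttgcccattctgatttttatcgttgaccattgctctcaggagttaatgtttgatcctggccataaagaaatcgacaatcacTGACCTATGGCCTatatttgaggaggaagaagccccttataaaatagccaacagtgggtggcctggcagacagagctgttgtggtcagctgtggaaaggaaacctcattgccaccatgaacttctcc
Cyp4a2: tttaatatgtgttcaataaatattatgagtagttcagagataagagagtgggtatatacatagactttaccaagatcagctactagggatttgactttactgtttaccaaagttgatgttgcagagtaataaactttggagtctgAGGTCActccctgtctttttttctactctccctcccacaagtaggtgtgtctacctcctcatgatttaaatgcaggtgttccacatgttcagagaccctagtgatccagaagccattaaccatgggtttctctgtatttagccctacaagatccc
Cyp4a3: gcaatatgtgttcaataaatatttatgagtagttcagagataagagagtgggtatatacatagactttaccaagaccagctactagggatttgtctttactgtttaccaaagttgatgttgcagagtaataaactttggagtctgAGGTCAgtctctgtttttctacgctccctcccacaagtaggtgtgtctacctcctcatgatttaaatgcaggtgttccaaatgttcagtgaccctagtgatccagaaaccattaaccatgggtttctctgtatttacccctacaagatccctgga
The Cyp4a2 and Cyp4a3 sequences were identical at 284 of 295 aligned bases (96.3%). Both genes were lower in every TAE library than in any HCC library, but a link between promoter and level was not tested.

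Of the genes that bind and activate fatty acids in the cytosol, Fabp1 was the most abundant member. Fabp1, the fatty acid binding protein of liver, had 689.7, 438 and 977 FPKM in TAE, against 1510.0, 2284 and 1862 FPKM in HCC. No TAE library reached the HCC range, but the spread within TAE was wide and the log2 change of -1.43 ± 0.37 did not pass (edgeR adjusted p = 0.0832). Acsl1, which joins long fatty acids to coenzyme A, had 112, 65.8 and 161 FPKM in TAE and 175, 187 and 159.9 FPKM in HCC, and TAE replicate 3 was within the HCC range (log2 change -0.62 ± 0.37, edgeR adjusted p = 0.340). Acot1, a cytosolic acyl-CoA thioesterase, had 5, 1 and 0 counts in the TAE libraries and 1, 2 and 3 in the HCC libraries, too few for a comparison. It is a close copy of Acot2, so the counting could have split reads between them.

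**Figure D2:**
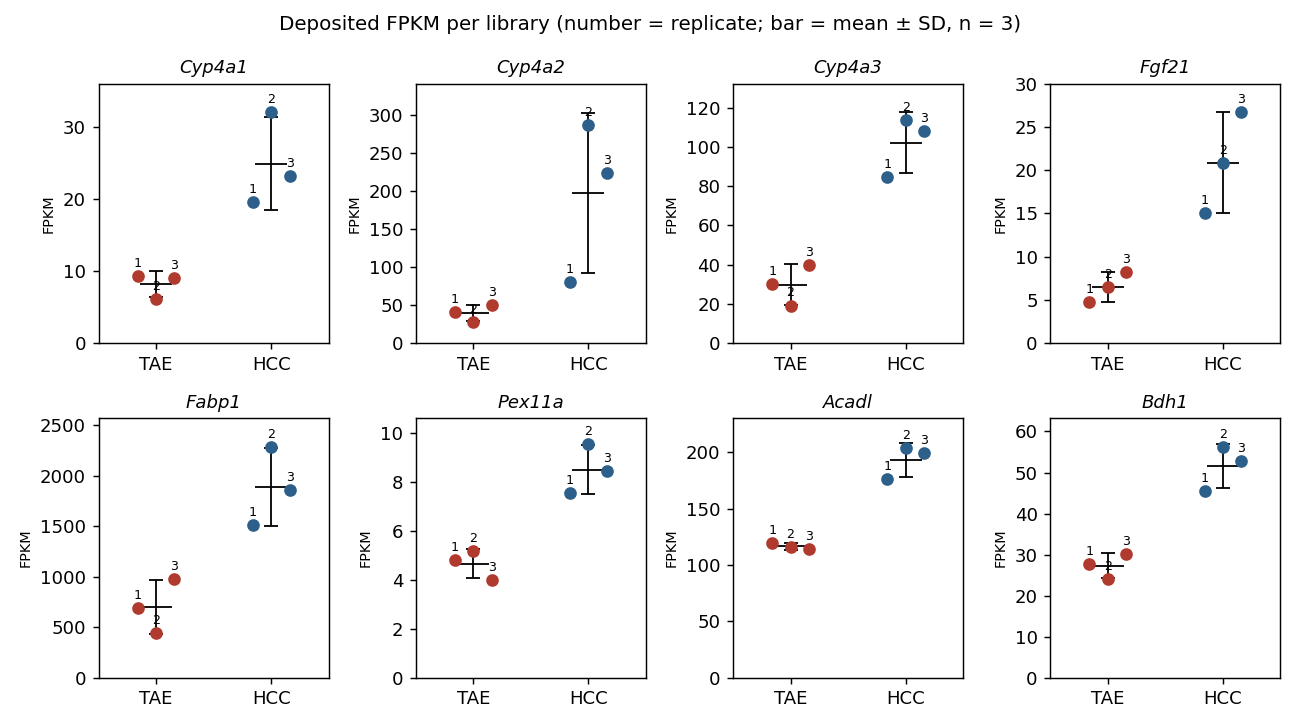
FPKM per library (y axis, linear from 0) of the 6 members that passed in edgeR and of Cyp4a2 and Fabp1, with TAE left and HCC right; numbers mark replicates and bars the mean and SD over 3 libraries. The groups do not overlap in any of the 8 panels, and the TAE values of Acadl lie within 114 to 119.5.

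The carnitine shuttle, which carries long acyl chains into mitochondria, had log2 changes below 0 in all 3 members, and 0 passed in edgeR. Cpt2, the inner membrane transferase, had 10.1, 10.2 and 11.8 FPKM in TAE, against 16.6, 22.0 and 18.6 FPKM in HCC, without overlap (log2 change -0.88 ± 0.19, edgeR adjusted p = 0.0569). DESeq2 called it lower, the only one of the 3. Cpt1a, the outer membrane transferase and the controlled entry step, had 25.1, 20.8 and 30.4 FPKM in TAE and 23.5, 33.6 and 33.4 FPKM in HCC. Its groups overlapped, with HCC replicate 1 below TAE replicates 1 and 3 (log2 change -0.27 ± 0.25, edgeR adjusted p = 0.526). Slc25a20, the carnitine carrier between them, likewise overlapped, with log2 change -0.21 ± 0.26.

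Of the 21 members placed in mitochondria, Acadl and Bdh1 fell, where 0.310% of all genes did. All 21 had log2 changes below 0, where 53.1% of all genes did, and the median was -0.59. Echs1 is counted among the 21, though its counts were too few to compare. Acyl-CoA dehydrogenases start each round of beta oxidation, and Acadl, which acts on long chains, had 119.5, 116 and 114 FPKM in TAE, against 176, 204 and 199.8 FPKM in HCC. The TAE libraries were almost alike in Acadl, and the log2 change was -0.78 ± 0.14 (edgeR adjusted p = 0.0429). Acadm, for medium chains, had 62.9, 48.2 and 73.5 FPKM in TAE and 91.8, 131 and 110.2 FPKM in HCC, without overlap (log2 change -0.88 ± 0.26, edgeR adjusted p = 0.110). Acadsb, for short branched chains, and Acads, for short straight chains, were also separate between groups, with log2 changes of -0.78 ± 0.27 and -0.41 ± 0.16, while Acadvl, for very long chains, overlapped at -0.39 ± 0.29. None of the last 4 passed.

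Of the genes that take electrons from these dehydrogenases, 0 of 3 passed in edgeR. Etfa, a subunit of the electron transfer flavoprotein, had 78.9, 77.6 and 79.8 FPKM in TAE, against 111, 117 and 116 FPKM in HCC, a gap wider than the spread in both groups (log2 change -0.59 ± 0.14, edgeR adjusted p = 0.0634). Its partner subunit Etfb had 67.7, 58.3 and 93.7 FPKM in TAE and 73.7, 96.7 and 84.8 FPKM in HCC, which overlapped (log2 change -0.23 ± 0.26). Etfdh, which passes the electrons on to the respiratory chain, lay between them at -0.55 ± 0.23.

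Among the genes of the later steps of beta oxidation, grouped here with the thioesterase Acot2, 0 of 6 passed. The trifunctional protein subunits Hadha and Hadhb had the smallest standard errors there, with log2 changes of -0.25 ± 0.14 and -0.28 ± 0.13, and averaged 93.2 ± 5.00 and 82.1 ± 7.52 FPKM in TAE, against 107 ± 8.58 and 96.4 ± 8.15 FPKM in HCC (SD, n = 3). Hadh, a dehydrogenase of shorter chains, and Acaa2, a thiolase, had log2 changes of -0.43 ± 0.20 and -0.82 ± 0.30. Acot2, a mitochondrial thioesterase and PPAR-alpha target, had 3.65, 3.76 and 3.32 FPKM in TAE, against 5.57, 7.26 and 6.10 FPKM in HCC, without overlap (log2 change -0.87 ± 0.18, edgeR adjusted p = 0.0515). The row named Echs1, a short-chain hydratase, held only 8 to 20 counts per library in each group and does not allow a comparison. Of the auxiliary enzymes that deal with double bonds, Eci1 had 18.5, 16.6 and 26.5 FPKM in TAE, against 28.0, 51.5 and 48.8 FPKM in HCC, with HCC replicate 1 near TAE replicate 3 (log2 change -1.08 ± 0.33, edgeR adjusted p = 0.121). Decr1 and Ech1 had log2 changes of -0.82 ± 0.27 and -0.30 ± 0.27, and neither passed.

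Both ketone body genes of the set were lower in every TAE library than in any HCC library. Bdh1, which reduces acetoacetate to hydroxybutyrate, had 27.8, 24.0 and 30.2 FPKM in TAE, against 45.6, 56.1 and 52.8 FPKM in HCC. It fell by 0.95 ± 0.19 on the log2 scale, or by 48.1% (edgeR adjusted p = 0.0497). Acat1, the mitochondrial thiolase that joins acetyl-CoA units, had 43.4, 45.6 and 38.5 FPKM in TAE and 55.6, 69.0 and 64.3 FPKM in HCC, with a log2 change of -0.62 ± 0.13 just outside the threshold (edgeR adjusted p = 0.0506).

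Of the 6 peroxisomal genes tested, Pex11a fell and the 5 enzymes did not pass. Pex11a, a membrane protein of peroxisome division and a PPAR-alpha target, had 4.81, 5.19 and 4.01 FPKM in TAE, against 7.55, 9.55 and 8.44 FPKM in HCC. It was low to a like extent in all 3 TAE libraries, with a log2 change of -0.93 ± 0.16 (edgeR adjusted p = 0.0412). Ehhadh, the bifunctional peroxisomal enzyme, had 13.1, 8.36 and 26.8 FPKM in TAE, against 33.5, 34.9 and 30.7 FPKM in HCC, with TAE replicate 3 just under the HCC range (log2 change -1.02 ± 0.45, edgeR adjusted p = 0.237). Hsd17b4, the other bifunctional enzyme, and Acaa1a, the peroxisomal thiolase, had log2 changes of -0.53 ± 0.26 and -0.56 ± 0.30. Of the oxidases of branched chains, Acox3 had a log2 change of -0.30 ± 0.29. Acox2 had 22.9, 12.0 and 63.2 FPKM in TAE and 24.2, 33.2 and 23.4 FPKM in HCC. TAE replicates 1 and 2 were below and TAE replicate 3 far above the HCC range, so that the log2 change of Acox2, 0.33 ± 0.61 over all libraries, was -0.73 without TAE replicate 3, where that of Acox3 was -0.63.

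**Figure D3:**
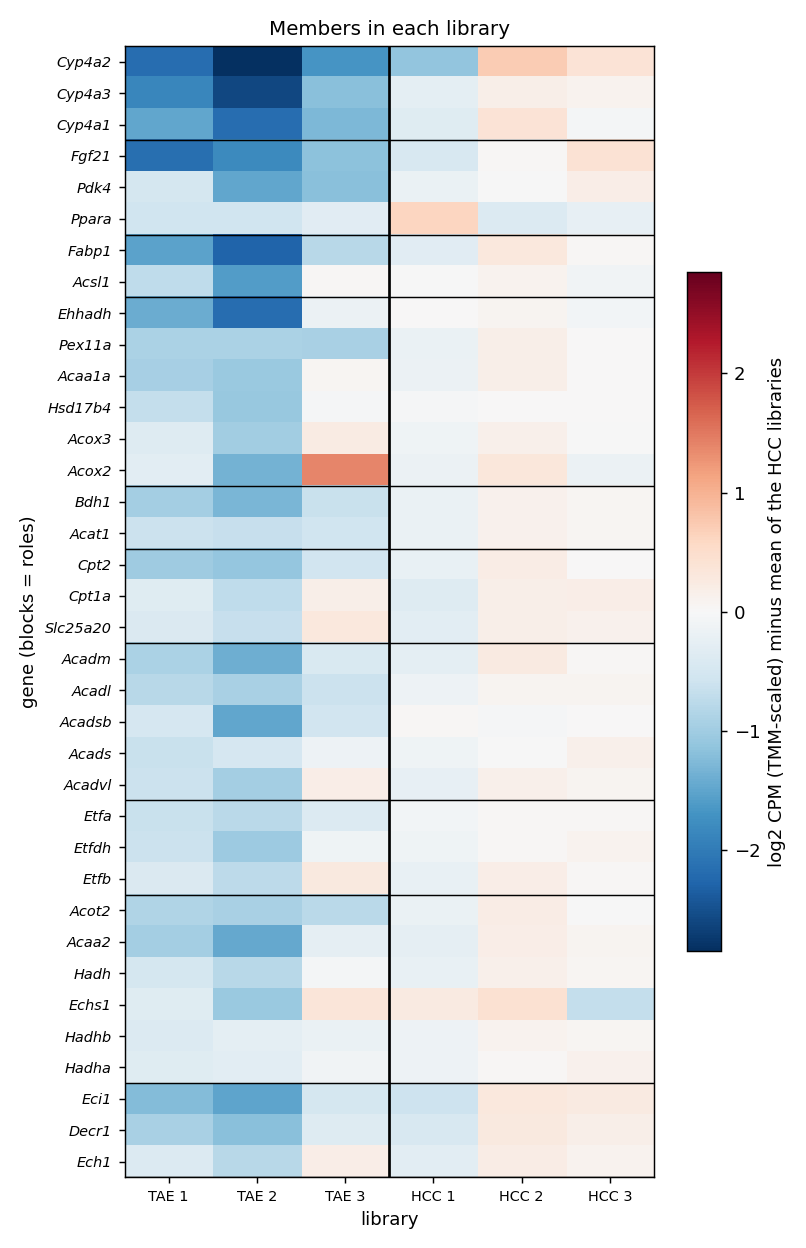
Level of each tested member in each library, as the TMM-scaled log2 CPM minus the mean of the HCC libraries (blue lower, red higher), TAE left of HCC; blocks from top to bottom are omega oxidation, regulator and hormone, cytosolic handling, peroxisomal, ketone body, carnitine shuttle, acyl-CoA dehydrogenase, electron transfer, later mitochondrial and auxiliary genes. TAE replicate 2 holds the lowest value of 30 of the 36 rows, and in TAE replicate 3 the 3 Cyp4a genes, Fgf21, Pdk4 and Pex11a are blue while Acox2 is red at 1.39.

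The median level of each route was compared library by library. Relative to the HCC mean on the TMM-scaled log2 CPM scale, the median of the 3 omega oxidation genes was -1.85, -2.60 and -1.29 in TAE replicates 1, 2 and 3. That of the 21 mitochondrial genes was -0.62, -0.93 and -0.25, and that of the 6 peroxisomal genes -0.79, -1.07 and 0.02. In the HCC libraries these medians spanned -0.34 to 0.39, -0.19 to 0.15 and -0.14 to 0.15, so that the peroxisomal genes of TAE replicate 3 were within the HCC spread and the omega oxidation genes outside it. Over all 6 libraries the median log2 change was -1.79 for omega, -0.59 for mitochondrial and -0.55 for peroxisomal genes. The peroxisomal median was -0.34 without TAE replicate 2 and -0.87 without TAE replicate 3, where the mitochondrial median was -0.51 and -0.79, so their order turned with the library left out. The difference between routes was not tested, since the lists were chosen with results known.

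Hepatocyte markers moved with part of this. Of 27 markers tested, 0 passed in edgeR (3 lower and 0 higher at an unadjusted p under 0.05, 0 in DESeq2), and 23 had log2 changes below 0 with a median of -0.49. Their median relative to the HCC mean was -0.74, -1.60 and 0.44 in TAE replicates 1, 2 and 3, and their summed FPKM was 15406 to 51067 in TAE and 34947 to 42752 in HCC. In TAE replicate 3, 21 of these 27 markers were above the highest HCC library on the TMM scale, where 41.7% of all genes were, and 2 below the lowest. In the same library 18 of the 36 members were below the lowest HCC library, where 41.7% of all genes were, and 5 above the highest. Of the 18, Cyp4a1, Cyp4a2 and Cyp4a3 stood at -1.29, -1.67 and -1.20, Fgf21 at -1.16 and Pdk4 at -1.20. Pex11a stood at -0.93, Fabp1 at -0.79, Acot2 at -0.77, Bdh1 at -0.63 and Acadl at -0.62. Above the HCC range were Acox2 at 1.39, Slc25a20 at 0.31, Etfb at 0.28, Acox3 at 0.23 and Acadvl at 0.19. The median of the 36 members in TAE replicate 3 was -0.29. In TAE replicate 2, where the hepatocyte markers were lowest, all 36 members were below the lowest HCC library, where 33.2% of all genes were, and in TAE replicate 1 it was 34, where 40.6% were. The part of hepatocyte content in these results was not tested.

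**Figure D4:**
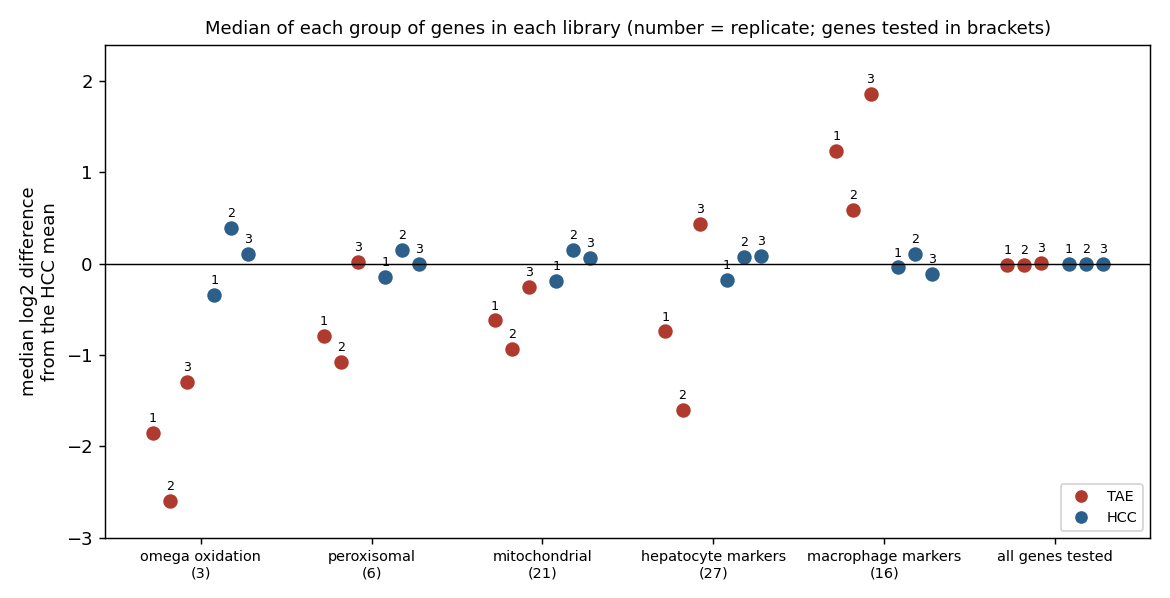
Median log2 difference from the HCC mean (y axis) of each group of genes in each library, TAE in red left of HCC in blue, with numbers for replicates. In TAE replicate 3 the hepatocyte markers stand at 0.44 and the omega oxidation genes at -1.29, while both are low in TAE replicates 1 and 2.

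Markers of several other cell types were higher in TAE. Of 16 macrophage markers, 8 rose and 0 fell, where 2.70% of all genes rose and 0.310% fell. At an unadjusted p under 0.05, 13 were higher and 0 lower, and DESeq2 called 12 higher. The other 3 had log2 changes below 0: Clec4f (-0.38 ± 0.41), Cd163 (-0.10 ± 0.31) and Marco (-0.05 ± 0.76). The summed FPKM was 4997 to 7748 in TAE and 1936 to 2264 in HCC. Much of it came from Lyz2, the myeloid lysozyme, with 3534, 2790.1 and 3353 FPKM in TAE and 675, 923 and 805 FPKM in HCC (log2 change 1.97 ± 0.23). Of 12 fibroblast and stellate cell markers, Lum, a matrix proteoglycan, rose, and the summed FPKM was 1384 to 3568 in TAE and 541 to 877 in HCC. All 12 were higher at an unadjusted p under 0.05, where 15.9% of all genes were. DESeq2 called 11 of them higher, where 10.2% of all genes were. Of 7 cholangiocyte markers, Cftr, a chloride channel, rose (4 higher and 0 lower at an unadjusted p under 0.05, 3 higher in DESeq2). Their summed FPKM was 113 to 258 in TAE and 21.2 to 62.2 in HCC, most of it in TAE from Spp1, a secreted phosphoprotein that other cells also make, with 209, 88.0 and 176 FPKM in TAE and 3.21, 40.7 and 14.5 FPKM in HCC (edgeR adjusted p = 0.0982). Krt7, a keratin, had a log2 change of -0.22 ± 0.53. Of 10 endothelial markers, 0 passed in edgeR, with 5 higher and 0 lower at an unadjusted p under 0.05 and 2 higher in DESeq2. Of 6 adipocyte markers, Adipoq, Plin1 and Lep had too few counts to test, with Lep at 0 in all libraries, and the other 3 did not pass (2 higher at an unadjusted p under 0.05, 2 in DESeq2). Of 7 muscle markers, Myh7 and Mb were at 0 in all libraries, and the 3 with enough counts did not pass (1 lower and 1 higher at an unadjusted p under 0.05, 1 higher in DESeq2). The part of these cell types in the lower level of the members was not tested.

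Other genes of the pathway gave a mixed picture. Of 80 further symbols listed for it, 73 were matched and 72 tested, and 0 passed in edgeR. At an unadjusted p under 0.05, 10 were lower, where 6.82% of all genes were, and 5 higher, where 15.9% were. DESeq2 called 5 lower, where 1.99% of all genes were, and 3 higher, where 10.2% were. Their median log2 change was -0.27, against -0.03 over all genes, and 54 of the 72 were below 0, against 53.1% of all genes. Among mitochondrial genes the largest differences were those of Acsm5, a medium-chain acyl-CoA synthetase (log2 change -1.75 ± 0.61), and Acss1, a mitochondrial acetyl-CoA synthetase (1.39 ± 0.34). Among peroxisomal genes they were those of Abcd2, a fatty acid transporter of the peroxisome (1.93 ± 0.44, at under 1 FPKM in every library), and of the thioesterases Acot4 (-1.90 ± 0.79) and Acot5 (-1.39 ± 0.84), which belong to the same family of close copies as Acot1 and Acot2.

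Not all known targets of PPAR-alpha were lower in TAE. Vldlr, a lipoprotein receptor, had 9.81, 4.94 and 9.18 FPKM in TAE, against 2.59, 3.74 and 2.98 FPKM in HCC, all above the HCC range (log2 change 1.34 ± 0.34, edgeR adjusted p = 0.0766). Plin2, a lipid droplet coat protein, had 191, 153 and 265 FPKM in TAE, against 104, 132 and 123 FPKM in HCC, also without overlap (log2 change 0.75 ± 0.29, edgeR adjusted p = 0.184), and is named after its values were seen. Creb3l3, a hepatic transcription factor that acts with PPAR-alpha, and Cyp8b1, a bile acid hydroxylase, had log2 changes of -0.82 ± 0.47 and -0.79 ± 0.82. Of 11 receptors and coregulators, Pparg, the adipocyte and macrophage member of the PPAR family, had the largest difference, with 6.14, 11.9 and 5.36 FPKM in TAE and 15.5, 11.4 and 13.1 FPKM in HCC, where TAE replicate 2 overlapped (log2 change -0.86 ± 0.26, edgeR adjusted p = 0.117). Hnf4a, which is also among the hepatocyte markers, and Med1, a mediator subunit that binds nuclear receptors, had log2 changes of -0.53 ± 0.42 and -0.44 ± 0.30. The median of these 11 genes was -0.14.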

How the data were processed

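RNA from liver tissue was sequenced in 6 libraries, 3 of TAE and 3 of HCC, grouped by their titles. Per the labels' protocols, libraries were poly(A)-selected and strand-specific (dUTP). The authors deposited 1 table that holds, per the file headers, read counts and FPKM values of each gene in each library. The deposited FPKM values equal counts scaled to exonic length and library total (100% within 0.006 when recomputed). The build is mRatBN7.2 per the submitters' processing notes, but gene ends on chromosome 1 reach 282724300, beyond that chromosome in this build, so coordinates are given as deposited. The aligner and counting tool, and whether strand was used, are not given in the sources used.

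The members were given as a list, found by symbol without regard to case, and they, the further gene lists and the tests were chosen with earlier results of these data known. Raw counts were tested with edgeR 4.0.16 (R 4.3.3; quasi-likelihood, TMM, filterByExpr, trended dispersion), as TAE minus HCC in a two-sided test with no block. P-values were adjusted by Benjamini-Hochberg over the 14499 genes tested, and 0.05 was the threshold. SEs are the absolute log2 change divided by the square root of F, and thus approximate. Log2 CPM values used a prior count of 2. The biological coefficient of variation was 0.240. TMM factors were 0.893 to 1.13 in TAE and 0.966 to 0.995 in HCC. Replicates differed beyond sampling noise, with a chi-square over its degrees of freedom of 51.8 to 212 within TAE and 5.71 to 13.9 within HCC. Full values per library are given for members that passed, the Cyp4a genes, Ppara, Cpt1a, Fgf21, Pdk4, Fabp1 and the member with the largest change in each role; others shown so were chosen after their values were seen. From each further list, genes that passed or up to 3 with the largest change are named, except for items not reported here. The scripts were tested on simulated counts. Alternatives were other scalings, filters and pseudocounts, DESeq2 1.42.0, limma 3.58.1 on FPKM or voom-weighted counts, a replicate block and leaving out each library. Counting error is largest for genes with few counts.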

Additional observations from a re-analysis of the deposited data

How the results depend on the processing

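Over 16 alternatives, 35 of the 36 members kept a log2 change below 0, and in 466 of 576 pairs of member and alternative the direction and the side of the threshold were those reported. Of the other pairs, 72 newly passed and 32 no longer passed. The medians of the mitochondrial, peroxisomal and omega oxidation genes moved by less than the spread between libraries in every alternative, though the peroxisomal one moved by over 1.5 times without TAE replicate 2 (-0.34) or 3 (-0.87), and 0 members were called higher in any. Acox2 changed sign in 6 alternatives: -0.03 with limma on log2(FPKM + 1), with or without the filter on low values, -0.04 with a pseudocount of 0.1, -0.30 with voom library weights, -0.09 with the replicate block and -0.73 without TAE replicate 3, against 0.76 without TAE replicate 2. The members called lower numbered 6 in the reported test, 10 without a count filter, 15 with DESeq2 and 32 with voom library weights. Of all genes, 45 of 14499, 69 of 21635, 288 of 14499 and 2823 of 14499 were called lower in these fits. The voom fit gave TAE replicate 2 a weight of 0.225. All genes called numbered 437 in the reported test, 720 with upper quartile scaling, 829 without a count filter, 1763 with DESeq2, 701 with limma on log2(FPKM + 1), 709 with a pseudocount of 0.1 and 5975 with voom library weights. Leaving out 1 library gave 0 to 23 members and 0 to 3569 genes. The causes were not tested.

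Same-numbered libraries of the groups did not all deviate together (r = 0.1, -0.209 and 0.0335 for replicates 1, 2 and 3). With 3 libraries per group these values cannot decide whether the numbers pair the samples, so pairing is not known. With the replicate block edgeR called 0 genes and 0 members, with 22 members lower and 0 higher at an unadjusted p under 0.05, where 7.39% of all genes were lower and 13.2% higher. Not every library correlated best with its own number.

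The calls are close to the threshold, with edgeR adjusted p from 0.0398 to 0.0497 for the 6 members that passed, and over the alternatives each of them lost its call in 5 or 6. With 3 libraries per group, Acot1 (0 to 5 counts) and Echs1 (8 to 20 counts) were too shallow to compare.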
